A study of Mus musculus with 30 samples.

Results

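The response of 3T3-L1 adipocytes to oxidized low-density lipoprotein (oxLDL) was described from 10 of the 30 RNA-seq libraries of the series, 5 of oxLDL-treated cells and 5 of control cells, chosen by their group label. Of the 54232 genes in the count table, 20139 had counts summing to more than 14 over the 30 libraries and were tested. 3T3-L1 is a single mouse preadipocyte line, and all of these cells were kept for 5 days in adipogenic medium with insulin, dexamethasone, isobutylmethylxanthine and indomethacin. Control cells received this medium alone, and the oxLDL group also received 50 µg/mL of oxLDL. Neither group received indoxyl sulfate or pNaKtide. The sample labels give 5 days of treatment, whereas the methods of the study describe treatment every 24 h over a shorter period. The text on RNA extraction in the labels names adipose tissue, although the stated source is 3T3 cells. The labels do not say that the 5 replicates of a group were separate cultures, so p-values measure the spread between these libraries, which may be technical.

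OxLDL is LDL whose lipids and apolipoprotein have been modified by oxidation, and it enters cells through scavenger receptors such as Cd36, Olr1 and Scarb1. It delivers cholesterol, oxysterols and lipid peroxides. Cells respond to sterols through SREBP2, a transcription factor that turns on cholesterol synthesis and uptake when membranes are low in cholesterol, and through LXR, which turns on cholesterol efflux when oxysterols are abundant. Electrophiles act through Nrf2, amino acid shortage and eIF2α phosphorylation act through ATF4, and inflammatory receptors act through NF-κB.

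The libraries held 10104438 to 13219298 counts in control cells and 7903355 to 13516334 with oxLDL. Values per gene are CPM, counts scaled by library size and TMM factor. Defining adipocyte genes were abundant in both groups, with Cidec at 4335 to 6639 CPM in control and 3956 to 5859 CPM in oxLDL libraries, Lpl at 3538 to 4264 and 3719 to 4526 CPM, and Adipoq at 818.3 to 1206 and 775.2 to 1125 CPM. Preadipocyte markers were present too, with Pdgfra at 97.89 to 154.5 CPM in control and 119.1 to 145.5 CPM in oxLDL libraries, while Cd34 was at most 0.422 CPM in every library. Of 14 macrophage markers 7 were tested, with a summed level of 8.29 to 14.6 CPM in control and 8.68 to 13.1 CPM in oxLDL libraries, and 1 of them, Cd14, was lower with oxLDL when all libraries were used and not when the trends described next were taken out. Leaving out control 1, 3 of the 7 were lower, against 21.7% of all genes tested. Adgre1, Ptprc, Itgam, Tyrobp and the C1q genes did not pass the count filter. Of 8 endothelial markers 2 were tested, at a summed level of at most 0.739 CPM in any library, and neither was called. None of the 4 epithelial markers tested was called with all libraries, while the muscle markers Des and Actn3 were lower and the bone marker Runx2 was higher with oxLDL in all 4 fits described next. Runx2 was not called in 7 of 10 fits that each left out 1 library (controls 3, 4 and 5 and oxLDL 1, 2, 4 and 5).

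The oxLDL and control libraries differed in how their counts varied with the GC content and the length of transcripts. For each library, the difference of each gene's log2 CPM from its mean over the 10 libraries was regressed on GC content and log2 length over the 12626 genes whose mean log2 CPM reached 1. Per 10 percentage points of GC, the slope was -0.09, 0.33, 0.08, 0.41 and 0.38 log2 units in control replicates 1 to 5. In oxLDL replicates 1 to 5 it was -0.24, -0.32, -0.18, -0.05 and -0.32. The oxLDL libraries thus lay below 4 of the 5 control libraries, and control 1 lay between oxLDL 3 and oxLDL 4. The mean difference was -0.44 (exact two-sided permutation test, p = 0.0159, where the smallest possible p is 0.00794, and 0.0635 after BH adjustment over the 8 library measures compared). Without control 1 it was -0.52 (exact permutation test, p = 0.00794, the smallest that test allows, adjusted p = 0.0159).

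**Figure D1:**
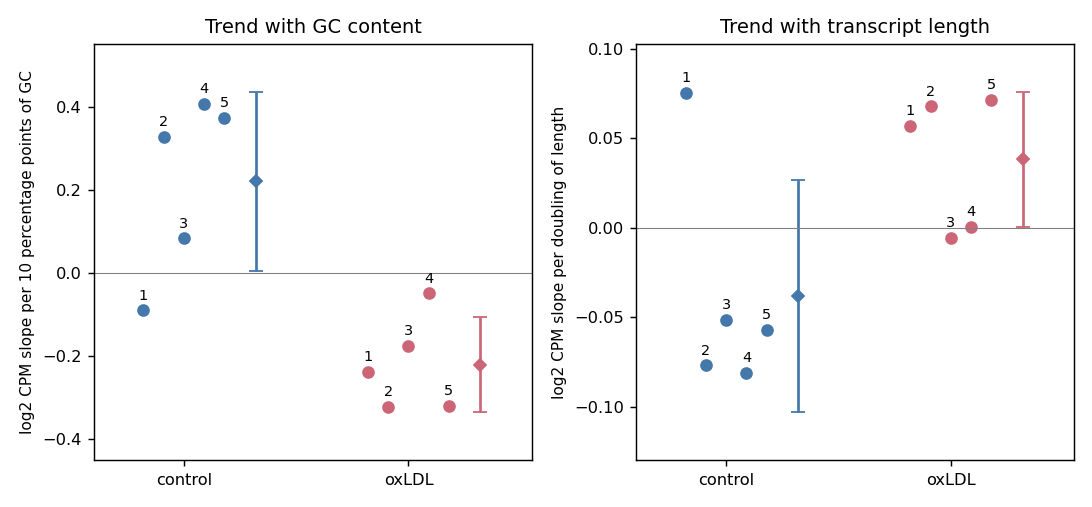
Slope of log2 CPM on GC content (left, per 10 percentage points) and on transcript length (right, per doubling) in each control (blue) and oxLDL (red) library, numbered by replicate. Diamonds with bars are the mean and SD of 5 libraries, and control 1 lies within or next to the oxLDL libraries in both panels.

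The slope on length separated the groups less. Per doubling of length it was 0.08, -0.08, -0.05, -0.08 and -0.06 log2 units in control replicates 1 to 5, and 0.06, 0.07, -0.01, 0.0003 and 0.07 in oxLDL replicates 1 to 5. Control 1 had the highest slope of all 10 libraries. The mean difference of 0.08 did not pass an unadjusted p of 0.05 (exact permutation test, p = 0.0714, adjusted p = 0.143), and without control 1 it was 0.10 (exact permutation test, p = 0.00794, the smallest possible, adjusted p = 0.0159). Of the other library measures, the share of counts on ribosomal protein genes was 3.25 ± 0.413% in control and 2.59 ± 0.25% in oxLDL libraries (SD, n = 5, exact permutation test, p = 0.0238, adjusted p = 0.0635), and the share on mitochondrially encoded genes was 4.51 ± 0.757% and 5.10 ± 0.623% (exact permutation test, p = 0.183, adjusted p = 0.244).

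Genes poor in GC were mostly higher and genes rich in GC mostly lower in oxLDL-treated cells. Genes were called at a BH-adjusted p-value of 0.1 in edgeR's quasi-likelihood test. With all libraries, 36.0% of the genes tested were called, 3637 (18.1%) higher and 3622 (18.0%) lower. The median GC content was 43.9% for the higher and 54.5% for the lower genes, against 49.7% for all genes tested, and their median exonic lengths were 5022 and 2595 bases, against 3105. Among the 1263 genes lowest in GC content (31.9 to 42.4%), 1025 were higher and 6 lower, with a median log2 fold change of 0.59. Among the 1263 highest (57.6 to 69.8%), 16 were higher and 705 lower, with a median of -0.32. By length, 582 of the 1263 shortest genes (75 to 794 bases) were lower, with a median of -0.30, and 549 of the 1263 longest were higher, with a median of 0.27.

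**Figure D2:**
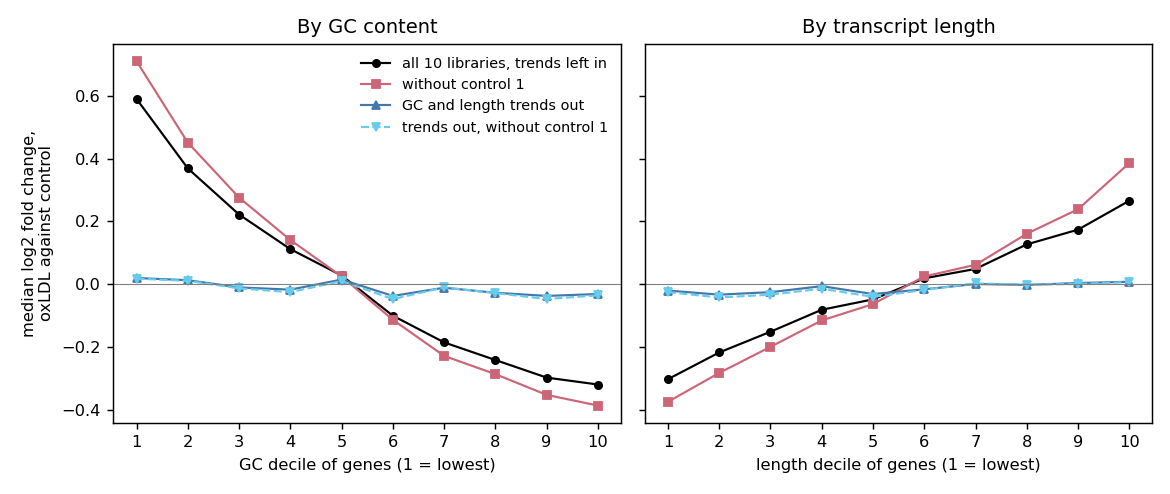
Median log2 fold change with oxLDL in deciles of 12626 genes ordered by GC content (left) and by exonic length (right), in 4 fits. With the trends left in, the medians run from 0.59 to -0.32 over GC content, and with each library's trends taken out in all libraries they lie between -0.04 and 0.02.

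Each library's smooth trend over GC content and length was then estimated and entered as an offset. With the trends out, 19.0% of genes were called, 1632 (8.10%) higher and 2191 (10.9%) lower. Of the 3637 genes higher before, 1100 were higher again, 75 were lower and 2462 were not called, and of the 3622 genes lower before, 1535 were lower again, 3 were higher and 2084 were not called. The common biological coefficient of variation was 14.02% with the trends in and 9.98% with them out. GC content alone gave most of this change, with 1491 higher (7.40%) and 2060 lower genes (10.2%) when only that trend was taken out, against 3388 (16.8%) and 3819 (19.0%) when only the length trend was. Scaling by library size alone called 35.9% of genes, but with another split, 4963 higher (24.6%) and 2276 lower (11.3%). Whether a trend over GC content arises in the cells or in library preparation was not tested, and taking it out also takes out any response that runs along GC content.

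Control 1 lay nearer to the oxLDL libraries than to the other control libraries. It was kept in the group its label gives, and whether that label is right was not tested, so each value with all libraries rests on it. A principal component analysis of 12639 genes placed 74.4% of the variance on its first axis, where control 1 scored 18.1, the other controls -40.4 to -17.4 and the oxLDL libraries 5.25 to 34.2. Its root mean square distance was 0.482 log2 units to the mean of the other controls and 0.218 to the mean of the oxLDL libraries, where each other control was within 0.264 of the mean of the remaining 3. Without control 1, 45.9% of genes were called, 4880 (24.2%) higher and 4368 (21.7%) lower. Of the genes called with all libraries, 98 of the higher and 39 of the lower were lost, while 1341 higher and 785 lower genes were gained. No overlap between oxLDL and control libraries was seen in 1681 genes (8.35%) with all libraries, 4.83% higher and 3.52% lower, and in 6917 (34.3%) without control 1.

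Some genes did not pass the test with all libraries and passed it without control 1. Of these, Malat1, a nuclear long noncoding RNA, had 599.6 CPM in control 1 against 158.1, 154.9, 157.6 and 128.0 CPM in the other controls. With oxLDL it had 517.6, 515.5, 214.7, 249.1 and 385.6 CPM. All oxLDL libraries lay above 4 of the controls, and control 1 lay above all oxLDL libraries. The log2 fold change was 0.65 with all libraries (SE 0.38, adjusted p = 0.205), 1.33 without control 1 (adjusted p = 0.00202), and 0.70 without it and with the trends out (adjusted p = 0.0545). It also passed with all libraries and a replicate block. Tet2, a dioxygenase that oxidizes 5-methylcytosine, had 26.4 CPM in control 1 and 8.38, 8.02, 9.07 and 7.47 CPM in the other controls, against 20.9, 25.0, 15.1, 16.8 and 22.8 CPM with oxLDL (log2 fold change 0.76, adjusted p = 0.11, and 1.30 without control 1, adjusted p = 0.00317). The same order was seen in Amt, of the glycine cleavage system. In the opposite direction, Gbp2, an interferon-induced GTPase, had 12.4 CPM in control 1, 20.3 to 22.7 CPM in the other controls and 14.9 to 17.9 CPM with oxLDL. Gbp2 was lower with the trends out as well (-0.30, adjusted p = 0.092). Rab5if and Smyd1 were just above the threshold with all libraries (adjusted p = 0.104 and 0.113) and lower without control 1 (adjusted p = 0.0121 and 0.0284).

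**Figure D3:**
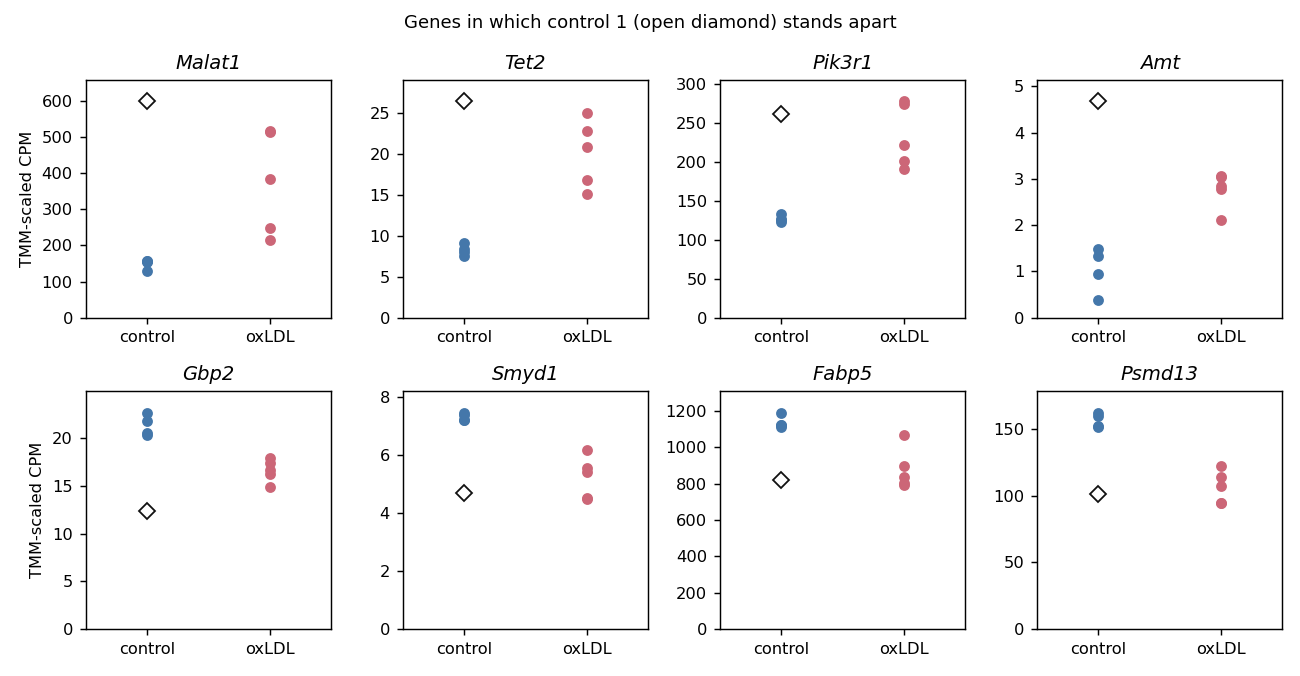
TMM-scaled CPM of 8 genes in the control (blue, control 1 as an open diamond) and oxLDL (red) libraries, each on a linear axis from 0. Control 1 lies among or beyond the oxLDL libraries, as for Malat1 at 599.6 CPM against 128.0 to 158.1 CPM in the other controls.

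Other genes were called with all libraries and not with the GC and length trends out. Ube2v2, which encodes a ubiquitin-conjugating enzyme variant, had 16.8, 9.40, 14.8, 9.18 and 8.98 CPM in control and 23.6, 37.4, 19.3, 16.8 and 31.1 CPM in oxLDL libraries. The highest control and the lowest oxLDL value were nearly equal. Its log2 fold change was 1.12 (SE 0.28, adjusted p = 0.00957) with the trends in and 0.24 (adjusted p = 0.218) with them out. Cip2a, an inhibitor of protein phosphatase 2A, had 1.18 and 0.32 in the same fits, and Zfp991 had 1.11 and 0.30, and was called again with the trends out when control 1 was also left out (0.36, adjusted p = 0.0737). Among lower genes, Cenpm, of the inner kinetochore, had -0.76 with the trends in (adjusted p = 0.027) and -0.42 with them out (adjusted p = 0.209), Morn2 had -0.71 and -0.40, and Stac2 had -0.66 and -0.39. Morn2 was called with the GC trend alone out, and both were called with each library's trend over level taken out as well.

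Both choices together called 31.4% of genes, 3132 (15.6%) higher and 3201 (15.9%) lower. In all 4 fits, that is with all libraries, without control 1, with the trends out, and with both changes, 1075 genes (5.34%) were higher and 1516 (7.53%) lower. Their median absolute log2 fold change was 0.61 for the higher and 0.47 for the lower genes, and 223 of the higher and 40 of the lower changed more than 2-fold. The lower genes were the more abundant ones. Of the 3157 most abundant genes (mean log2 CPM from 6.04), 25.1% were lower and 3.77% higher in all 4 fits, against 2.79% and 7.98% of the 3157 least abundant of the 12626 genes. Lists counted below whose median gene reached the same level are therefore counted also with each library's trend over level taken out, a fit added after these values were seen, which called 1594 genes (7.91%) higher and 1806 (8.97%) lower over all genes. Counts with 1 library left out are read against the calls over all 20139 genes in that fit. Leaving out control 1, 2, 3, 4 or 5 gave 4880, 2398, 3296, 2372 and 2632 higher and 4368, 2711, 3393, 2599 and 2877 lower genes. Leaving out oxLDL 1, 2, 3, 4 or 5 gave 2998, 2553, 3650, 3705 and 2677 higher and 3074, 2732, 3632, 3868 and 2759 lower genes.

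The 8 largest increases and 8 largest decreases were taken from genes called in all 4 fits whose groups did not overlap. Among the increases, Clec2d, a ligand of the inhibitory natural killer cell receptor Klrb1b (chromosome 6 of GRCm38, 129180615 to 129186534), rose from 25.4, 9.25, 14.5, 7.60 and 9.65 CPM in control to 36.4, 38.6, 49.5, 33.8 and 40.2 CPM with oxLDL. The groups did not overlap, and control 1 was the highest control. The log2 fold change was 1.57 (SE 0.36, adjusted p = 0.00783) and 1.42 with the trends out (adjusted p = 0.0168). Ogn, the small leucine-rich proteoglycan osteoglycin (chromosome 13, 49608046 to 49624501), rose from 8.04, 4.58, 3.92, 4.54 and 2.65 CPM to 18.3, 14.9, 11.5, 10.96 and 13.8 CPM. Its log2 fold change was 1.54 (SE 0.30, adjusted p = 0.00601) and 0.75 with the trends out (adjusted p = 0.049).

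The other 6 genes at the top were zinc finger genes, Zfp51, Zfp975, Zfp976, Zfp979, Zfp994 and Zfp995, with log2 fold changes of 1.39 to 1.81 with all libraries and 0.63 to 1.02 with the trends out. They belong to families of near-identical genes in which the counting may have split reads, and their values are uncertain. Of 361 genes named Zfp, most of which encode DNA-binding proteins, 186 were higher and 20 lower with all libraries, 70 and 9 with the trends out, and 62 and 3 in all 4 fits (background 18.1% and 18.0%, 8.10% and 10.9%, and 5.34% and 7.53%). Without control 1, 225 were higher and 26 lower (background 24.2% and 21.7%). Without control 4, 148 were higher and 12 lower, against 2372 and 2599 over all genes. Without control 5, 149 were higher and 13 lower, against 2632 and 2877. Their median log2 fold change was 0.41 with all libraries, 0.19 with the trends out and 0.13 with the level trend out as well, against 0.045 and 0.029 over all genes in the first 2 of these. Under scaling by library size alone 216 were higher and 8 lower (background 24.6% and 11.3%). Their median GC content was 44.6%.

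Among the 8 decreases, 4 genes make cholesterol. Dhcr7, which carries out the last step from 7-dehydrocholesterol (chromosome 7, 143823145 to 143848410), fell from 195.9, 265.8, 275.8, 270.1 and 285.7 CPM in control to 139.8, 140.0, 163.7, 148.8 and 140.7 CPM with oxLDL. The groups did not overlap, and control 1 lay between the other controls and the oxLDL libraries. The log2 fold change was -0.82 (SE 0.115, adjusted p = 0.000601) and -0.75 with the trends out (adjusted p = 5.15e-05). Mvd, mevalonate diphosphate decarboxylase (chromosome 8, 122433601 to 122443422), fell from 66.7, 105.2, 103.8, 114.1 and 114.2 CPM to 53.9, 49.7, 57.9, 57.9 and 44.6 CPM (log2 fold change -0.93, SE 0.14, adjusted p = 0.00089, and -0.59 with the trends out). Fdps, farnesyl diphosphate synthase, changed by -0.75 and Tm7sf2, a sterol C14 reductase, by -0.95 on the same scale. The others were Kcnab2, a potassium channel subunit, Sorbs3, the adhesion adaptor vinexin, Scamp4 and Them6, with -0.72 to -0.89.

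Of 25 tested genes of cholesterol synthesis and uptake, the targets of SREBP2, 16 were lower and 1 higher with all libraries (background 18.0% lower and 18.1% higher). With the trends out 20 were lower and none higher (background 10.9% and 8.10%), and 16 were lower in all 4 fits (background 7.53%). Under scaling by library size alone 15 were lower and 2 higher (background 11.3% and 24.6%), and with the level trend out 17 were lower and none higher. With single libraries left out 15 to 18 were lower and 0 to 4 higher, with 4 higher without control 1 (background 24.2%). The median log2 fold change of the list was -0.46 with all libraries, -0.49 without control 1, -0.35 with the trends out and -0.30 with the level trend out as well, against 0.045, 0.064 and 0.029 over all genes in the first 3 of these. The median GC content of the list was 50.2%, close to that of all genes. The higher gene was Sc5d, lathosterol oxidase, with a log2 fold change of 0.36 (adjusted p = 0.069) and 0.01 with the trends out (adjusted p = 0.953).

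SREBP2 itself and its escort were lower, Srebf2 by a log2 fold change of -0.40 and Scap by -0.48 (adjusted p = 0.00783 and 0.00573). Srebf2 had 157.7, 175.1, 176.5, 181.9 and 200.5 CPM in control and 136.9, 135.7, 130.2, 142.6 and 130.6 CPM with oxLDL, and the groups did not overlap. Along the pathway, Mvk, Pmvk, Fdft1, Lss, Cyp51, Nsdhl and Ebp were lower in all 4 fits, with log2 fold changes from -0.21 for Cyp51 to -0.87 for Mvk.

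Among the members not called with all libraries, Msmo1, Sqle and Hsd17b7 were lower with the trends out, and Hmgcs1, Idi1, Insig1 and Stard4 were not called in either fit. Hmgcs1, HMG-CoA synthase, had 254.1, 155.0, 201.4, 152.5 and 171.5 CPM in control and 242.8, 252.4, 211.1, 206.0 and 245.2 CPM with oxLDL. Control 1 was above all oxLDL libraries and the other controls were below them. Its log2 fold change was 0.31 with all libraries (adjusted p = 0.117), 0.45 without control 1 (adjusted p = 0.0147) and -0.05 with the trends out (adjusted p = 0.703). Idi1, isopentenyl diphosphate isomerase, had 0.33 and -0.19 in the first and the third of these fits, neither past the threshold. Insig1, an SREBP target whose product holds Scap in the endoplasmic reticulum, had 0.14 and 0.02 (adjusted p = 0.512 and 0.936).

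**Figure D4:**
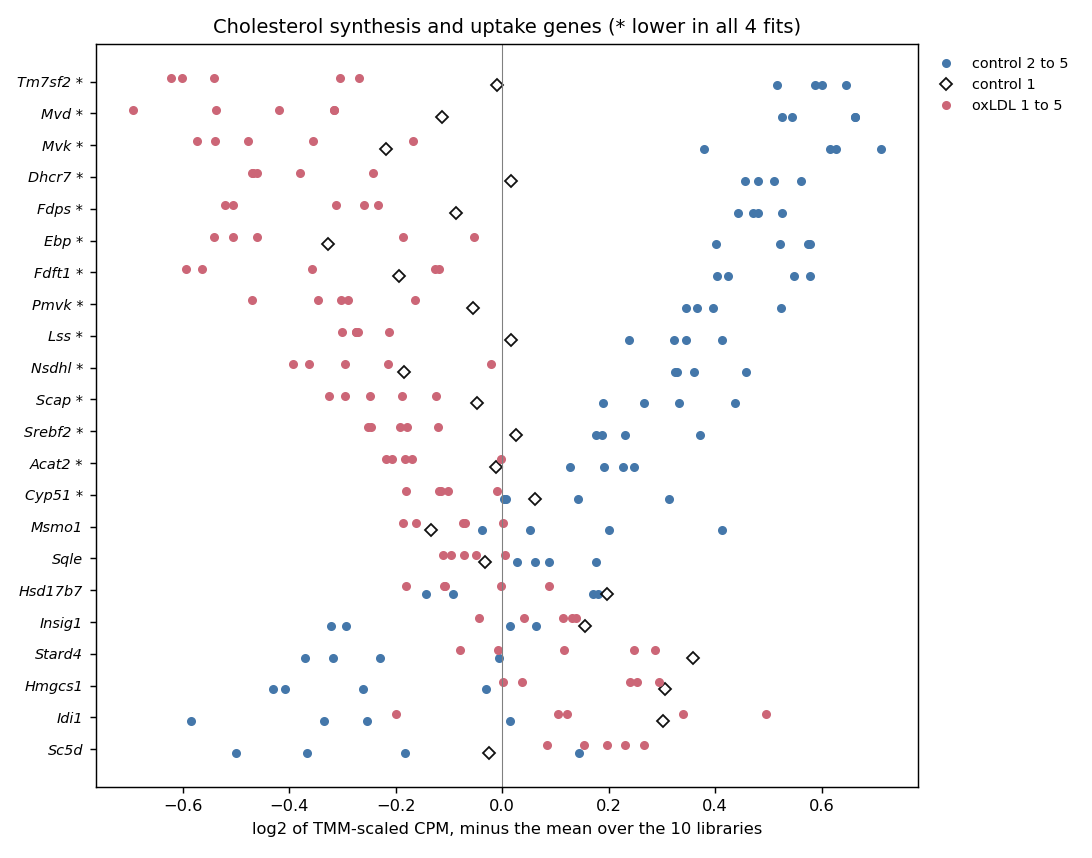
Log2 of TMM-scaled CPM of 22 cholesterol genes in each library, minus the gene's mean over the 10 libraries, for controls 2 to 5 (blue), control 1 (open diamond) and oxLDL (red). Asterisks mark the 14 plotted genes lower in all 4 fits, and control 1 lies between the groups for most of these.

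The promoter windows of RefSeq (GRCm38.p6, around each annotated start) matched 18 of these 25 genes. The sterol response element, searched as TCACNCCAC on both strands, was found in 1 of them, Hmgcs1, and in none of the 12 matched genes that were lower in all 4 fits, against 1.44% of 27025 genes. The 150 bases before the Hmgcs1 start (chr13:119690201-119690350, plus strand) are shown because this is the matched member, with the element in capitals.
Hmgcs1: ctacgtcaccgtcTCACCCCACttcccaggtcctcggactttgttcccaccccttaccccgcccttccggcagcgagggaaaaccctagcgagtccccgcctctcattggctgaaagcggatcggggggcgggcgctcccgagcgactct
No match says only that these letters are not in the window searched.

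Of 10 tested genes of cholesterol efflux and the LXR pathway, 1 was higher and 5 were lower with all libraries (background 18.1% and 18.0%), and 2 and 3 with the trends out (background 8.10% and 10.9%), with medians of -0.27 and -0.08. With the level trend out 2 were higher and 3 lower. The sterol exporters Abca1 and Abcg1 had log2 fold changes of 0.29 and 0.20 (adjusted p = 0.315 and 0.178). Abca1 had 165.5, 109.9, 128.7, 104.6 and 126.8 CPM in control and 151.3, 181.1, 129.7, 133.0 and 181.7 CPM with oxLDL, so that control 1 lay among the oxLDL libraries and the other controls below them. Mylip, a ubiquitin ligase that limits lipoprotein uptake, was higher in all 4 fits, at 55.6 ± 4.40 CPM in control and 69.1 ± 3.78 CPM with oxLDL (SD, n = 5, log2 fold change 0.31, SE 0.08, adjusted p = 0.00818). The LXR genes Nr1h3 and Nr1h2 and the phospholipid remodelling enzyme Lpcat3 were lower in all 4 fits, by log2 fold changes of -0.55, -0.53 and -0.52.

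Of 13 tested scavenger and lipoprotein receptors, 2 were higher and 1 was lower with all libraries, and 0 and 1 with the trends out, close to or below the shares over all genes (18.1% and 18.0%, and 8.10% and 10.9%). With the level trend out 1 was higher and 1 lower. The higher genes were Cd36 and Olr1, the lectin-like oxLDL receptor, whose log2 fold changes of 0.53 and 0.41 (adjusted p = 0.0109 and 0.0421) became -0.20 and 0.01 with the trends out (adjusted p = 0.109 and 0.968). Scarb1, the receptor for high-density lipoprotein, had 279.6, 377.4, 402.2, 378.1 and 438.0 CPM in control and 259.2, 249.4, 289.9, 292.1 and 249.3 CPM with oxLDL. Control 1 lay among the oxLDL libraries and the other controls above them. Its log2 fold change was -0.48 (SE 0.10, adjusted p = 0.00744) and -0.40 with the trends out (adjusted p = 0.0151).

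Genes of fatty acid and triglyceride synthesis were lower more often than higher. Of 27 tested, 14 were lower and 3 higher with all libraries, 12 and 3 with the trends out, and 11 and 1 in all 4 fits (background 18.0% and 18.1%, 10.9% and 8.10%, and 7.53% and 5.34%). The median log2 fold change was -0.31, -0.15 with the trends out and -0.07 with the level trend out as well, where 9 were lower and 5 higher. Without control 4 1 gene was higher. Fads1, the delta-5 desaturase, had 152.5, 204.1, 224.7, 211.7 and 220.9 CPM in control and 137.7, 122.3, 147.0, 141.3 and 120.0 CPM with oxLDL. The groups did not overlap, and the log2 fold change was -0.60 (SE 0.10, adjusted p = 0.00222) and -0.48 with the trends out (adjusted p = 0.00114). Fasn, fatty acid synthase, Acly, which makes cytosolic acetyl-CoA, Acss2 and Elovl3 were lower in all 4 fits, by -0.56, -0.40, -0.62 and -0.45. Mlxipl, the glucose-responsive factor ChREBP, was higher, at 0.633 to 1.70 CPM in control and 1.85 to 2.11 CPM with oxLDL (log2 fold change 0.75, adjusted p = 0.0364). Scd1, stearoyl-CoA desaturase, was not called (0.05, adjusted p = 0.713).

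Of 28 tested fatty acid oxidation genes, 5 were higher and 9 lower with all libraries (background 18.1% and 18.0%), and 2 and 4 in all 4 fits (background 5.34% and 7.53%). The higher share was near the background. Without control 1, 5 were higher and 12 lower, with the level trend out 4 and 4, and the median of -0.09 turned to 0.04 under scaling by library size alone. Acadm, medium-chain acyl-CoA dehydrogenase, rose from 254.4, 212.4, 255.7, 209.2 and 240.2 CPM in control to 302.2, 329.0, 348.2, 287.8 and 343.9 CPM with oxLDL. The groups did not overlap, and the log2 fold change was 0.46 (SE 0.13, adjusted p = 0.0122) and 0.41 with the trends out (adjusted p = 0.0196). Etfa, an electron transfer flavoprotein subunit, was also higher in all 4 fits, while Hadha, a subunit of the mitochondrial trifunctional protein, and Acaa2, a thiolase, were lower in all 4.

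Targets of ATF4, which serve amino acid synthesis, transport and tRNA charging, were lower more often than higher. Of 25 tested, 15 were lower and none higher with all libraries, 12 were lower and 2 higher with the trends out, and 12 were lower in all 4 fits (background 18.0%, 10.9% and 7.53% lower). The median log2 fold change was -0.32, and -0.18 with the trends out. With the level trend out as well, 8 were lower and 3 higher, and the median was -0.12. Asns, asparagine synthetase, had 169.2, 233.0, 258.3, 227.5 and 234.7 CPM in control and 165.4, 144.5, 196.1, 193.3 and 140.7 CPM with oxLDL. Control 1 lay among the oxLDL libraries, which all lay below the other controls. The log2 fold change was -0.42 (SE 0.10, adjusted p = 0.00894) and -0.42 with the trends out (adjusted p = 0.0084). Shmt2, mitochondrial serine hydroxymethyltransferase, Phgdh, the first enzyme of serine synthesis, and the charging enzymes Sars, Aars, Gars and Wars were lower in all 4 fits, by -0.26 to -0.62. Atf4 itself had 168.6 ± 15.1 CPM in control and 191.9 ± 12.8 CPM with oxLDL (SD, n = 5, log2 fold change 0.19, adjusted p = 0.205), and Ddit3, the stress factor CHOP, had 49.8 ± 5.27 and 52.0 ± 5.25 CPM (adjusted p = 0.696).

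The letters TGATGNAA, the ATF4 element as searched on both strands, were found in the promoter windows of 9 of 22 matched ATF4 target genes (40.9%), and of 5 of the 11 matched genes that were lower in all 4 fits, against 4.51% of 27025 genes. The 150 bases before the start of 4 of these lower genes are shown because the matches lie there, with the element in capitals, and where it reads in reverse complement it lies on the other strand. The windows are chr6:7693210-7693359 (minus strand) for Asns, chr3:50443614-50443763 (minus strand) for Slc7a11, chr6:55037851-55038000 (plus strand) for Gars and chr8:111033692-111033841 (plus strand) for Aars.
Asns: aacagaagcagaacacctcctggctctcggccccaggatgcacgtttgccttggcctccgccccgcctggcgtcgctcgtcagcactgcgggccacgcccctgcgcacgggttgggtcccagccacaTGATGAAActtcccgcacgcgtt
Slc7a11: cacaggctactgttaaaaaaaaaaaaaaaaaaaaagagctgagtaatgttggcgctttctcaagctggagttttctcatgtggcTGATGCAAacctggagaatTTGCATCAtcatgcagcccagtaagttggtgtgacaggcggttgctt
Gars: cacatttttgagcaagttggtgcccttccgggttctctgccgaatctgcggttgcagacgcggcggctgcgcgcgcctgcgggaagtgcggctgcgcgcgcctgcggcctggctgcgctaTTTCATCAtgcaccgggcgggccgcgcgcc
Aars: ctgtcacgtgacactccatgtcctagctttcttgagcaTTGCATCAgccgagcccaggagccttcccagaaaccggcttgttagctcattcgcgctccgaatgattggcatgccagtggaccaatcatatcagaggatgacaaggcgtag
The list was chosen as ATF4 targets, so a high share of matches describes the list and not the response, and Trib3 held its match after the start.

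The cystine transporter Slc7a11, a target of both ATF4 and Nrf2, had 37.3, 53.3, 49.2, 59.3 and 58.2 CPM in control and 35.8, 34.9, 38.7, 45.8 and 30.6 CPM with oxLDL. All oxLDL libraries lay below controls 2 to 5. The log2 fold change was -0.47 (SE 0.14, adjusted p = 0.017) and -1.07 with the trends out (adjusted p = 0.0372), and its GC content is 42.1%. Of 25 Nrf2 targets, 12 were lower and none higher with all libraries, 11 were lower and 1 higher with the trends out, and 9 were lower in all 4 fits (background 18.0%, 10.9% and 7.53% lower). Without control 1, 14 were lower and 3 higher (background 21.7% and 24.2%), without control 3 2 were higher, and with the level trend out 6 were lower and 4 higher. Under scaling by library size alone 11 were lower and 6 higher (background 11.3% and 24.6%), and the median moved from -0.195 to -0.063. The members lower in all 4 fits were G6pdx, Pgd and Tkt of the pentose phosphate pathway, the ferritin gene Fth1, and Gsto1, Gstm1, Abcc1, Blvrb and Slc7a11. The most used markers of Nrf2 activity were not among them, with Hmox1 at 185.7 ± 22.4 and 163.0 ± 20.7 CPM in control and oxLDL cells (SD, n = 5, log2 fold change -0.19, adjusted p = 0.109) and Nqo1 at 25.1 ± 2.45 and 25.8 ± 2.14 CPM (0.04, adjusted p = 0.793). Hmox1 was lower without control 1 (-0.26, adjusted p = 0.015), but had 0.05 with the trends out. The antioxidant response element, searched as TGACNNNGC on both strands, was found in the windows of 8 of 20 matched Nrf2 targets (40%), of 2 of the 8 matched genes that were lower in all 4 fits (25%), and of 14% of 27025 genes.

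Of 23 antioxidant enzymes, 14 were lower and 3 higher with all libraries, 9 and 1 with the trends out, and 8 and 1 in all 4 fits (background 18.0% and 18.1%, 10.9% and 8.10%, and 7.53% and 5.34%). With the level trend out 5 were lower and 2 higher. In all 4 fits the higher gene was Cat, catalase, at 448.0 ± 37.0 CPM in control and 520.6 ± 48.2 CPM with oxLDL (SD, n = 5, log2 fold change 0.22, SE 0.09, adjusted p = 0.0608). The lower genes were Sod1, Sod3, Prdx2, Prdx4, Prdx6, Txn2, Msra and Txnrd2, and Txnrd2, mitochondrial thioredoxin reductase, had the smallest p-value among these (-0.45, adjusted p = 0.00981).

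Of 15 glycolysis genes, 14 were lower and none higher with all libraries (background 18.0% and 18.1%), and 10 were lower in all 4 fits (background 7.53%), with a median log2 fold change of -0.39, -0.28 with the trends out and -0.08 with the level trend out as well, where 6 were lower and 2 higher. Eno1, enolase, had 556.6, 1010.0, 908.5, 1063.0 and 1020.0 CPM in control and 575.4, 454.7, 586.1, 706.6 and 468.0 CPM with oxLDL, so that control 1 alone overlapped (log2 fold change -0.71, SE 0.16, adjusted p = 0.00783). Of 79 cytosolic ribosomal protein genes, 65 were lower and none higher with all libraries, 50 were lower with the trends out and 44 in all 4 fits (background 18.0%, 10.9% and 7.53%), with medians of -0.44 with all libraries and -0.26 with the trends out, and 25 were lower and 2 higher with the level trend out. Rpl24 had 94.8, 114.4, 111.7, 121.0 and 108.3 CPM in control and 72.7, 62.2, 80.3, 90.2 and 65.7 CPM with oxLDL, without overlap. Many processed pseudogenes share sequence with these genes, and the counting may have split their reads.

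Of 52 translation factors, 24 were lower and 14 higher with all libraries, 30 and 6 with the trends out, and 22 and 4 in all 4 fits (background 18.0% and 18.1%, 10.9% and 8.10%, and 7.53% and 5.34%), and with the level trend out 21 were lower and 7 higher. Those in all 4 fits were, among the lower ones, Eef1a1 and Eef2 of elongation and several eIF3 subunits, and the higher ones were Eif5, Eif2s3x, Eif4a2 and Eif3j1. Of 84 nuclear subunits of the respiratory chain and ATP synthase, 43 were lower and 5 higher with all libraries, 25 and 5 with the trends out, and 17 and 0 in all 4 fits (background 18.0% and 18.1%, 10.9% and 8.10%, and 7.53% and 5.34%), while with the level trend out 12 were lower and 17 higher and the median moved from -0.27 to -0.02. Without control 4, 28 were lower, against 2599 over all 20139 genes. The 13 protein genes of the mitochondrial genome, with a median GC content of 37.1%, turned, with 2 higher and none lower with all libraries (median 0.11, background 18.1% and 18.0%) and none higher and 8 lower with the trends out (median -0.44, background 8.10% and 10.9%). With the level trend out none was higher and 2 were lower (median -0.16), while 4 were higher without control 1 (background 24.2%) and none without oxLDL 2 (2553 over all genes). The 24 HECT ubiquitin ligases, with a median GC content of 44.7%, had 9 higher and 4 lower with all libraries (median 0.22, background 18.1% and 18.0%) and 0 and 6 with the trends out (median -0.08, background 8.10% and 10.9%). Under scaling by library size alone 15 were higher and 3 lower (median 0.35, background 24.6% and 11.3%), and with the level trend out 0 and 2 (median -0.001). Without control 1, 14 were higher (background 24.2%), and without control 4, 5 were, against 2372 over all 20139 genes. Of 26 lysosomal genes, 16 were lower and 1 higher with all libraries (background 18.0% and 18.1%), and 8 were lower in all 4 fits (background 7.53%), among these the cathepsins Ctsd, Ctsb and Ctsa and the cholesterol carrier Npc2, though 6 were lower and 1 was higher with the level trend out.

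**Figure D5:**
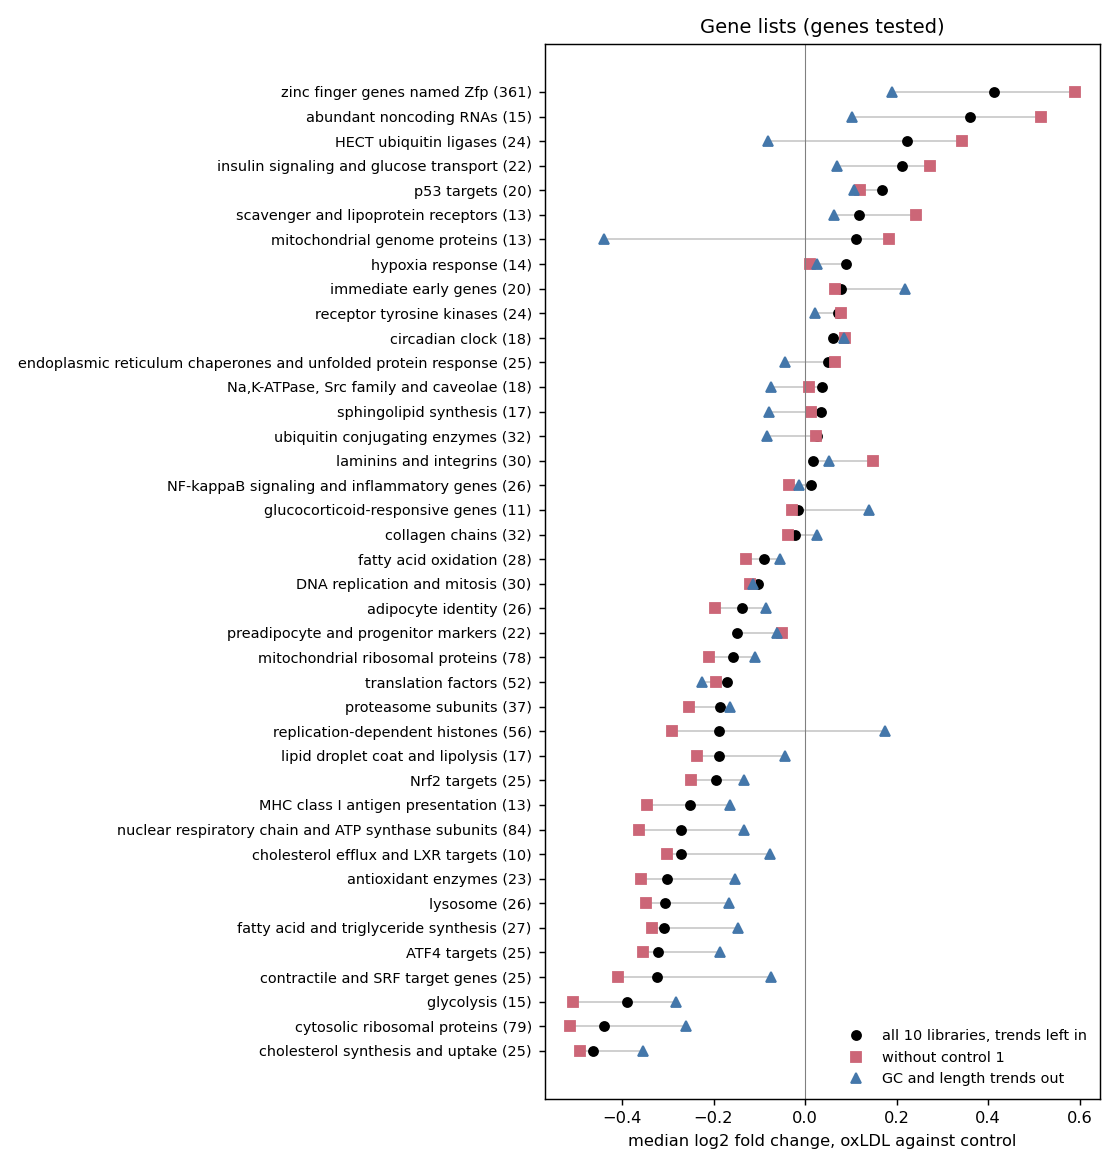
Median log2 fold change with oxLDL of each gene list with 10 or more genes tested, whose number is in parentheses, in 3 fits. Cholesterol synthesis and uptake genes have the lowest median with all libraries (-0.46) and keep -0.35 with the trends out. Several other lists cross 0, among them the mitochondrial genome, HECT ligase and replication-dependent histone lists.

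Of 26 adipocyte identity genes, 7 were lower and 1 higher with all libraries, and 3 and 3 with the trends out (background 18.0% and 18.1%, and 10.9% and 8.10%). The count moved with single libraries. Without control 1, 13 were lower and 3 higher, without control 4 4 were lower, and without control 5 or without oxLDL 1 3 were. Lower calls over all genes also moved, from 3622 to 4368 without control 1 and 2599 without control 4. They were 2877 without control 5 and 3074 without oxLDL 1. Taking the level trend out left 1 lower and 5 higher. The 1 gene lower in all 4 fits was Fabp5, a fatty acid binding protein (1073 ± 143.9 CPM in control and 878.2 ± 111.8 CPM with oxLDL, SD, n = 5, log2 fold change -0.29, adjusted p = 0.0617). The median of the list was -0.14, and near 0 under scaling by library size (-0.01). Cfd, adipsin, had -0.53 (adjusted p = 0.0269) and then -0.09 with the trends out (adjusted p = 0.647). Of 22 preadipocyte and progenitor markers, 5 were higher and 5 lower with all libraries (background 18.1% and 18.0%), and 2 and 1 with the trends out (background 8.10% and 10.9%). With single libraries left out 1 to 7 were higher and 0 to 6 lower. Zfp423 and Dpt were higher in all 4 fits. Of 17 genes of the lipid droplet coat and lipolysis, 5 were lower and 1 higher with all libraries (background 18.0% and 18.1%), 8 and 1 without control 1, 3 and 1 without control 4 or oxLDL 5, and 2 and 4 with the level trend out. The coat genes Plin2 and Plin3 were lower in all 4 fits, by -0.32 and -0.37, although Plin2 was not called with the level trend out (-0.03, adjusted p = 0.834), and Plin1 was not called (-0.11, adjusted p = 0.401).

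Calls among genes of NF-κB signaling and inflammation were near or below the shares over all genes with TMM scaling. Of 26 tested, 4 were higher and 6 lower with all libraries, 3 and 1 with the trends out, and 2 and 1 in all 4 fits (background 18.1% and 18.0%, 8.10% and 10.9%, and 5.34% and 7.53%), with medians of 0.01 and -0.01. Without control 5 2 were higher, and without oxLDL 5 3 were lower. Under scaling by library size alone 8 were higher and 3 lower (background 24.6% and 11.3%), with a median of 0.15. Cxcl1, a neutrophil chemokine, had very low levels, at 0.985, 0.711, 0.0955, 0.211 and 0.757 CPM in control and 1.27, 1.29, 0.988, 1.37 and 1.60 CPM with oxLDL, without overlap (log2 fold change 1.19, SE 0.33, adjusted p = 0.0124). Tnfaip3, the NF-κB inhibitor A20, was higher (0.45, adjusted p = 0.0144), at 8.77 to 12.9 CPM in control and 13.4 to 16.3 CPM with oxLDL. Nfkb2 was lower (-0.46, adjusted p = 0.00834). Of 25 genes of the endoplasmic reticulum and the unfolded protein response, 5 were higher and 3 lower with all libraries (background 18.1% and 18.0%). Without control 1, 9 were higher and 5 lower (background 24.2% and 21.7%), and with the level trend out 5 and 1 (background 7.91% and 8.97%). Scaling by library size alone gave 11 higher and 3 lower (background 24.6% and 11.3%) and moved the median from 0.05 to 0.18. In all 4 fits the sensor kinase PERK (Eif2ak3) was higher (0.33, adjusted p = 0.025) and Calr, P4hb and Xbp1 were lower. None of these 3 was called with the level trend out, at -0.08, 0.03 and -0.06, so that P4hb turned in sign.

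Of 18 genes of the Na,K-ATPase, Src family kinases and caveolae, 3 were higher and 7 lower with all libraries and 3 and 1 with the trends out (background 18.1% and 18.0%, and 8.10% and 10.9%). Without control 4 or without control 5, 4 were lower, against 2599 and 2877 over all genes. Under scaling by library size alone 6 were higher and 5 lower (background 24.6% and 11.3%), and the median moved from 0.04 to 0.16. Yes1, a Src family kinase, was higher in all 4 fits (1.05, adjusted p = 0.00783, and 0.51 with the trends out), and so was Atp1b1, the β1 subunit (0.65, adjusted p = 0.0168). Cav1, caveolin 1, was not called (0.01, adjusted p = 0.961).

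Among 32 tested collagen chains, 8 were lower and 1 higher with all libraries and 4 and 1 in all 4 fits (background 18.0% and 18.1%, and 7.53% and 5.34%). Without control 1, 8 were lower and 5 higher (background 21.7% and 24.2%), and without control 4 5 were lower (2599 over all genes). The median of -0.02 turned to 0.10 under scaling by library size and 0.03 with the trends out. Col6a2, of collagen VI, had 2325, 3227, 2868, 3443 and 3267 CPM in control and 1849, 1881, 1964, 2067 and 1965 CPM with oxLDL, without overlap (log2 fold change -0.64, SE 0.16, adjusted p = 0.00894). Col6a1, Col1a2 and Col15a1 were also lower, and Col7a1, of anchoring fibrils, was higher (0.80, adjusted p = 0.0292) in all 4 fits. Of 30 laminins and integrins 5 were higher and 5 lower with all libraries, close to the background of 18.1% and 18.0%, and single libraries left out gave 3 to 6 higher and 3 to 5 lower. With the trends out 1 was higher and 4 were lower (background 8.10% and 10.9%). Scaling by library size alone gave 6 higher and 1 lower (background 24.6% and 11.3%). Lama4 and Itga5, the fibronectin receptor α chain, were lower in all 4 fits. Of 25 contractile and SRF target genes 8 were lower and 3 higher with all libraries, and 2 and 0 with the trends out (background 18.0% and 18.1%, and 10.9% and 8.10%), as the median moved from -0.32 to -0.07. Without control 4, control 5, oxLDL 1 or oxLDL 4, 1 was higher.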

How the data were processed

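Messenger RNA of 3T3-L1 cells was sequenced as stranded paired-end libraries. The submitters' processing notes name Trimmomatic 0.38, HISAT2 2.1.0, DESeq2 1.20.0 and GRCm38, and the methods name GenomicAlignments for counting. For the annotation release and for whether counting used strand, the sources used here give nothing, so reads of overlapping and antisense genes may not be told apart. The raw gene counts deposited by the authors were used as they stand. The authors' size-factor-normalized and FPKM tables derive from the same counts and were not used. Each of the 30 columns matched a sample label, and 0 columns were left over.

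Genes whose counts summed to more than 14 over the 30 libraries were fitted in edgeR 4.0.16 (R 4.3.3) with TMM scaling and robust quasi-likelihood over all 6 groups, with oxLDL minus control as the contrast, two-sided tests and BH adjustment over all 20139 genes at 0.1. The methods of the study state DESeq2 at this threshold, and DESeq2 1.42.0 was run as an alternative. GC content and exonic length came from GENCODE transcripts of GRCm38. Trends over GC content and length were fitted in each library with mgcv 1.9.3 and used as offsets. The fits with and without these trends were tested on simulated data with known fold changes. Depth was 7903355 to 13516334 counts per library, and p-values cover the spread between libraries.

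Genes were named by rule. The first part took up to 8 genes per direction with the largest change among genes called in all 4 fits, with no overlap of the groups and a mean log2 CPM of at least 1, leaving out unnamed (Gm, Rik) genes and pseudogenes by symbol. The second took up to 3 per direction called with all libraries and not with the trends out, and the third up to 3 per direction not called with all libraries and called without control 1, also with the trends out. The fourth took the gene with the smallest p-value per direction in each list, and the fifth was Insig1, Abca1, Abcg1, Hmox1, Nqo1, Ddit3, Asns and Cav1. Some genes that the rule takes are not reported here. Other list members named in the text were chosen after their values were seen. The comparison, the gene lists and the motifs were chosen with earlier results of these data known. Promoter windows are from RefSeq on GRCm38.p6.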

Additional observations from a re-analysis of the deposited data

Results flagged for a closer look

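In 204 groups of 5 libraries, 1 value per library was compared with its 4 neighbours by Dixon's test at the 95% level (critical ratio 0.71), which chance passes in about 1 of 20 groups. That rate does not apply to genes named because they were called without control 1 and not with it (Malat1, Tet2, Amt, Gbp2 and Smyd1), since that choice favours genes in which control 1 stands apart. The other genes were also chosen by their difference between the groups or by name. The length slope of control 1 was 0.0754 log2 units per doubling, against -0.081 to -0.0514 in the other controls.

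Among genes lower with oxLDL with all libraries, control 1 lay below the other controls in CPM. Of the cholesterol genes, Dhcr7 had 195.9 against 265.8 to 285.7, Fdps 66.6 against 96.2 to 101.9, Mvd 66.7 against 103.8 to 114.2 and Tm7sf2 16.4 against 23.6 to 25.8. Of other lipid genes, Fads1 had 152.5 against 204.1 to 224.7, Lpcat3 387.4 against 497.8 to 534.5 and Fabp5 821.3 against 1111 to 1190. Shmt2 had 63.3 against 92.9 to 103.1, G6pdx 378.8 against 554.5 to 589.9, P4hb 1329 against 1763 to 1907 and Psmd13 101.7 against 151.6 to 162.5. The kinase Akt2 had 261.9 against 335.8 to 363.6 and the ubiquitin ligase Wwp2 41.9 against 53.3 to 57.2. Of genes lower with oxLDL without control 1 and not called with it, Gbp2 had 12.4 against 20.3 to 22.7 and Smyd1 4.68 against 7.19 to 7.45.

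Among genes higher with oxLDL with all libraries, control 1 lay above the other controls. Pik3r1, the regulatory subunit of PI3 kinase, had 261.1 CPM against 123.1 to 133.4, Snhg6 6.48 against 3.73 to 4.35 and Mylip 63.3 against 52.2 to 54.8. Of genes higher without control 1 and not called with it, Malat1 had 599.6 CPM against 128.0 to 158.1, Tet2 26.4 against 7.47 to 9.07 and Amt 4.68 against 0.378 to 1.48.

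Other libraries stood apart in single genes. In oxLDL 4, Zfp979 had 2.82 CPM against 6.30 to 7.23, Zyx 99.52 against 78.5 to 82.4, Jund 31.0 against 22.02 to 24.1 and Hmox1 199.2 against 148.7 to 160.1 in the other oxLDL libraries. Runx2 had 6.42 CPM in oxLDL 3 against 11.5 to 12.2, Scamp4 1.37 in oxLDL 5 against 2.18 to 2.40, and Amt 2.12 in oxLDL 1 against 2.79 to 3.06. Kcnab2 had 6.904 CPM in control 5 against 4.39 to 4.76 in the other controls. Why these libraries stand apart was not tested.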

How the results depend on the processing

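Taking out trends moved the number of genes called most, from 7259 with all libraries. It was 3551 with the GC trend out, 3823 with the GC and length trends out, 3400 with the level trend out as well (chosen after seeing the data), and 4971 to 9248 with single libraries left out, the highest without control 1 and the lowest without control 4 (5109 without control 2). Differences in slope were read at an unadjusted p of 0.05 in the exact permutation test. The difference in length slope was 0.06535 to 0.1047 with single libraries left out, and passed only without control 1 (0.1047). The difference in GC slope was -0.5193 to -0.3961 and passed each time, unadjusted. With all libraries its adjusted p was 0.0635 (exact permutation test). DESeq2 called 3701 genes higher and 3952 lower, and library-size scaling moved the split from 3637 higher and 3622 lower to 4963 and 2276. Of the genes named by rule, 2 turned in sign and were called before or after. P4hb (-0.41) had 0.0254 with the level trend out, and Cav1 (0.01) had -0.22 with both trends out and without control 1. Others turned in sign with neither value called, among them Hmox1 (-0.19, and 0.05 with both trends out) and Nqo1 (0.04 and -0.03). The cause was not tested. Outside the replicate block given next, replicate numbers were not used as pairs. The deviations of same-numbered libraries correlated at 0.24, -0.48, 0.11, 0.59 and -0.35, and 2 of 5 correlated best with their own number. Whether same-numbered libraries shared a culture or a batch was not tested. A replicate block gave 3946 higher and 3861 lower genes. A limit of detection for low-count genes was not measured.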

Other observations

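Of 2392 tested genes annotated as long noncoding RNA or as TEC, a class of transcribed loci that await experimental testing, 270 (11.3%) were higher and 43 (1.80%) lower with all libraries, both shares below those over all genes (18.1% and 18.0%), with a median log2 fold change of 0.35, and 0.32 with the trends out. Without control 1, 22.4% were higher (24.2% over all genes) and the median was 0.55. Of 3735 pseudogenes, 302 (8.09%) were higher and 874 (23.4%) lower, with a median of -0.16 that was 0.005 with the trends out.

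Of 17 genes of sphingolipid synthesis, 7 were higher and 4 lower with all libraries, and 1 and 7 with the trends out (background 18.1% and 18.0%, and 8.10% and 10.9%). Without control 2, control 4 or oxLDL 2, 4 were higher. Cers4, a ceramide synthase, had 238.5, 292.9, 307.5, 291.3 and 326.9 CPM in control and 186.9, 198.9, 224.1, 206.4 and 194.9 CPM with oxLDL, without overlap (edgeR's quasi-likelihood test, log2 fold change -0.53, adjusted p = 0.00361). Smpd1, acid sphingomyelinase, and Sphk2, a sphingosine kinase, were also lower in all 4 fits, and Ugcg, glucosylceramide synthase, was higher (0.84, adjusted p = 0.0122).

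Of 11 glucocorticoid-responsive genes, 3 were higher and 3 lower with all libraries, and 2 and 1 in all 4 fits (background 18.1% and 18.0%, and 5.34% and 7.53%). Tsc22d3 (GILZ) and Klf9 were higher in all 4 fits, by 0.40 and 0.47, and the metallothionein Mt1 was lower, by -0.62. Over the whole list, 3 were higher and none lower with the level trend out, where Mt1 had -0.11 (edgeR's quasi-likelihood test, adjusted p = 0.232). The medium held dexamethasone in both groups.

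Of 18 clock genes, 5 were higher and 2 lower with all libraries (background 18.1% and 18.0%). Without control 1, 7 were higher and 3 lower (background 24.2% and 21.7%), and in all 4 fits 2 and 2 (background 5.34% and 7.53%). Without control 2 or control 4, 3 were higher. The genes of all 4 fits were Rora and Per3, higher by 0.77 and 0.53, and Nr1d1 (REV-ERBα) and Dbp, lower by -0.44 and -0.55. Of 20 immediate early genes, 2 were higher and 4 lower with all libraries, 7 and 1 with the trends out (background 18.1% and 18.0%, and 8.10% and 10.9%), and 2 and 1 in all 4 fits, which were Klf6 and Klf4 (0.51 and 0.40) and Jund (-0.59). Without control 5, 2 were lower. Of 30 replication and mitosis genes, 5 were higher and 8 lower with all libraries (background 18.1% and 18.0%), and with single libraries left out 2 to 6 and 4 to 11, highest without control 1. With the trends out none was higher and 8 were lower (background 8.10% and 10.9%). Under scaling by library size alone 7 were higher and 3 lower (background 24.6% and 11.3%). The 3 lower in all 4 fits, near the background share, were the helicase subunits Mcm5, Mcm6 and Mcm7, by -0.54, -0.22 and -0.32.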
